A study of Mus musculus with 12 samples.

Results

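N6-methyladenosine (m6A) peaks were examined in the transcripts of chromatin and DNA methylation modifiers, the enzymes and remodeling subunits that write, erase or move marks on histones and DNA. The members were every listed peak whose gene symbol belonged to 1 of 11 families, namely *Kmt*, *Setd*, *Ezh*, *Kdm*, *Kat*, *Hdac*, *Dnmt*, *Tet*, *Chd*, *Smarc* and *Arid*. The rule uses symbols and no measured value, but it was set with earlier results of these data known. In wild-type (WT) mice they comprised 273 of 33622 peaks and 85 of 15781 genes, and in *Tyrobp*-/- mice 279 of 34935 peaks and 83 of 16146 genes. Together they covered 90 genes. Of 97 protein-coding mouse genes in RefSeq that carry such a symbol, 88 had a peak in at least 1 genotype. The 9 others were *Arid3c*, *Chd1l*, *Dnmt3b*, *Dnmt3l*, *Hdac2*, *Kat2b*, *Kdm5d*, *Smarca5* and *Smarcd1*. The remaining members, *Dnmt3c* and *Kdm4dl*, resemble *Dnmt3b* and *Kdm4d* closely, so reads may be split or shared between these copies.

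The samples came from the hippocampus of male mice aged 6 months on a C57BL/6 background. *Tyrobp*-/- mice carry a germline deletion in the second exon of *Tyrobp*, an adaptor of microglial receptors, made with TALEN nucleases, and the WT animals were their littermates. No treatment was given to either genotype. RNA of 3 animals was pooled in each sample, and 3 samples of each genotype gave an immunoprecipitated (IP) library, enriched with an antibody against m6A, and an input library of the same fragmented poly(A) RNA. The 12 libraries held 61189368 to 73554506 valid reads, and the share of bases at Q30 was lowest in replicate 2 within each of the 4 groups. The G and C content of the IP libraries was 49.16 to 50.24% in WT and 48.46 to 49.33% in *Tyrobp*-/- mice. The authors called peaks on the 3 replicates of a genotype together, so a peak has 1 fold enrichment (IP over input) per genotype and no replicate error. Differences between genotypes below are therefore descriptive and were not tested, and the depth behind a single peak is unknown.

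*Tyrobp* itself had no listed peak in either genotype, so the peak lists cannot check the genotype labels. All 7 markers of hippocampal neurons, all 5 of astrocytes and all 5 of oligodendrocytes had a peak in both lists, as did 4 of 6 microglial markers (*Csf1r*, *Cx3cr1*, *P2ry12* and *C1qa*, but not *Trem2* or *Tyrobp*). Of 3 choroid plexus markers only *Kl* had peaks, and of 4 hypothalamic markers only *Oxt*, with 1 peak in the WT list. Fold enrichment was at least 1.5-fold higher in *Tyrobp*-/- mice at 6 of 9 matched peaks of oligodendrocyte markers, with a median log2 ratio of 0.67. Among these, *Mag* had values of 67.9 in WT and 173 in *Tyrobp*-/- mice. Of all matched peaks, 16% were that much higher. At markers of hippocampal neurons 1 of 12 matched peaks was that much higher and 2 were as much lower. The counts were 0 and 1 of 8 for astrocytes, 0 and 1 of 11 for microglia, and 0 and 0 of 2 for choroid plexus. In tissue RNA, a change in cell numbers and a change within cells cannot be told apart, and the part of either in the values below was not tested.

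Histone methyltransferases and acetyltransferases add marks that recruit or repel other proteins, and demethylases and deacetylases remove them. DNA methyltransferases place methyl groups on cytosine and TET enzymes oxidize them, while Chd, Smarc and Arid proteins are parts of machines that use ATP to shift nucleosomes. Mutations in many of these genes are known causes of intellectual disability syndromes. m6A is placed on the transcripts themselves, mostly within the consensus motif DRACH, whose last letter is A, C or U. DRACH can begin with the letters GGAC. The mark is typically found in long exons and around stop codons, where it affects RNA stability, transport and translation.

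Sequence was at hand for the start of these genes only, as windows of 300 bases from RefSeq (GRCm38.p6) that reach from 250 bases before to 50 bases after a start site. A window was found for 68 member genes (95 windows), and 25 windows of 22 genes had their transcribed bases under a listed peak. The letters GGAC stood in the 50 transcribed bases of 15 member windows (15.8%) and of 18.9% of all 32851 windows, and the reverse complement GTCC stood in 17.4% of all windows. Of the 25 windows under a peak, 3 held GGAC. The 2 that lay wholly inside a peak are shown, 5′ to 3′ on the transcribed strand, with GGAC in capitals. They place these letters within a measured peak of a member.
Setd7, chr3:51560778-51560807, minus strand: cccagagcctccgGGACcggGGACgagagg
Arid5a, chr1:36307753-36307782, plus strand: cagtcgcgccgagagcgctgGGACaGGACg
The *Setd7* bases lay under peaks of both genotypes, and the peak that spans them is among the members with the largest difference, described further on. The *Arid5a* bases lay under a peak of the WT list (fold enrichment 8.79) and under none of the *Tyrobp*-/- list. That WT peak still overlapped *Tyrobp*-/- peaks that start farther downstream, with 3.77 and 6.67. In each sequence the later GGAC is followed by G, so it does not complete DRACH. A match of these letters is a description of the window and not evidence of a methylated site.

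Peaks were numerous on these transcripts. Member genes had a mean of 3.21 peaks in WT and 3.36 in *Tyrobp*-/- mice. Over all genes with a peak it was 2.13 and 2.16, while the median was 2 in each of these sets. At least 5 peaks were listed for 19 member genes in WT (22.4%) and 20 in *Tyrobp*-/- mice (24.1%), and for 6.99 and 7.39% of all genes. Between the genotypes, 28 member genes had more peaks in *Tyrobp*-/- mice, 26 had fewer and 36 had the same number. A broad peak in one list can be split in the other, so exonic bases under peaks were also counted. They came to 138794 in WT and 136872 in *Tyrobp*-/- mice, or 98.6%. A few peaks also shared bases with another peak of their gene in the same list, 14 in WT and 12 in *Tyrobp*-/- mice, which left 266 and 273 separate regions.

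**Figure D1:**
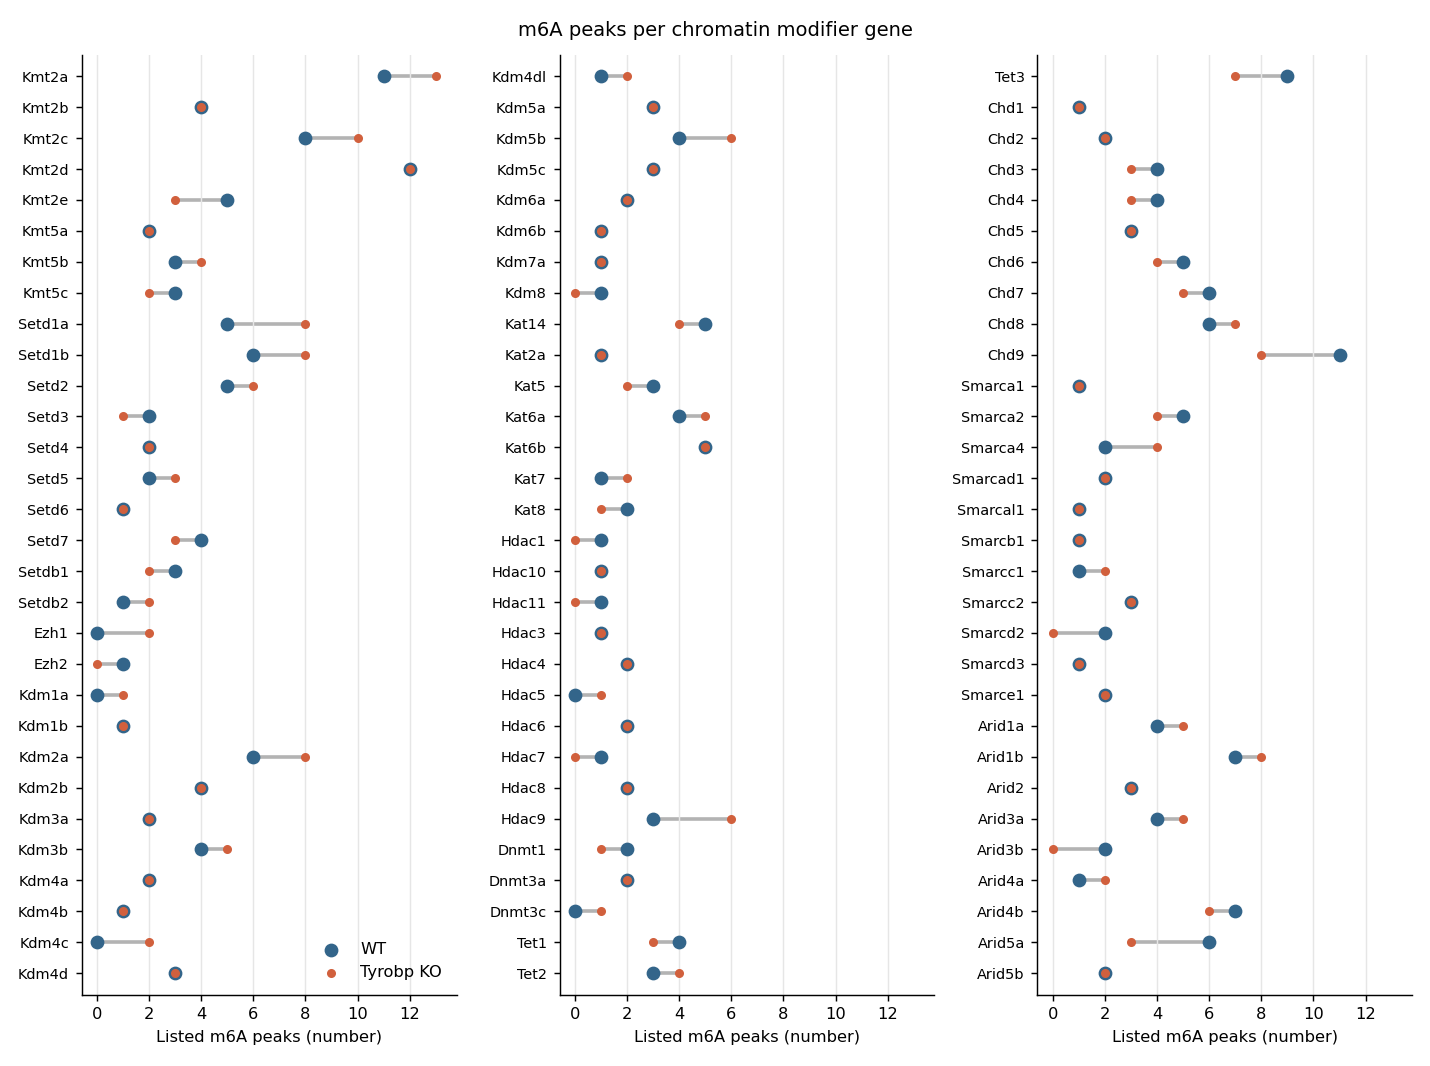
Number of listed m6A peaks (x axis) for each of the 90 member genes (y axis, ordered by family), in WT (large blue points) and *Tyrobp*-/- mice (small orange points, named Tyrobp KO here and in the other plots), joined by a grey line. *Kmt2a*, *Kmt2d* and *Chd9* have the most peaks in WT, and 36 genes have the same number in both genotypes.

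The *Kmt* transcripts carried the most peaks. *Kmt2d*, an enzyme that marks enhancers, had 12 peaks in each genotype. *Kmt2a*, which maintains the activity of developmental genes, had 11 in WT and 13 in *Tyrobp*-/- mice, and *Kmt2c*, a paralog of *Kmt2d*, had 8 and 10. In *Kmt2d* the strongest WT peak lay in exon 35 of 55 (chr15:98849522-98850961), with a fold enrichment of 13.6 in WT and 11 in *Tyrobp*-/- mice. The next ones lay in exon 49, with 8.98 in WT and 12.2 in *Tyrobp*-/- mice, and in exon 40, where 2 WT peaks of 8.76 and 6.35 met a single *Tyrobp*-/- peak of 10.6. In *Kmt2a* a WT peak of 2129 bases in exon 27 of 36 (chr9:44819066-44821194) had a fold enrichment of 10.8. Under that peak the *Tyrobp*-/- list held 3 shorter peaks, with 5.90, 1.53 and 2.46. A further peak in the same exon had 4.72 in WT and 4.63 in *Tyrobp*-/- mice. The highest fold enrichment of the family belonged to *Kmt5b*, a methyltransferase of histone H4 in silent chromatin, at a peak annotated to its 3′ UTR, with 16.6 in WT and 24.4 in *Tyrobp*-/- mice. *Kmt5a*, its monomethylating partner, was lowest, with no peak above 1.82 in WT and 1.86 in *Tyrobp*-/- mice.

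**Figure D2:**
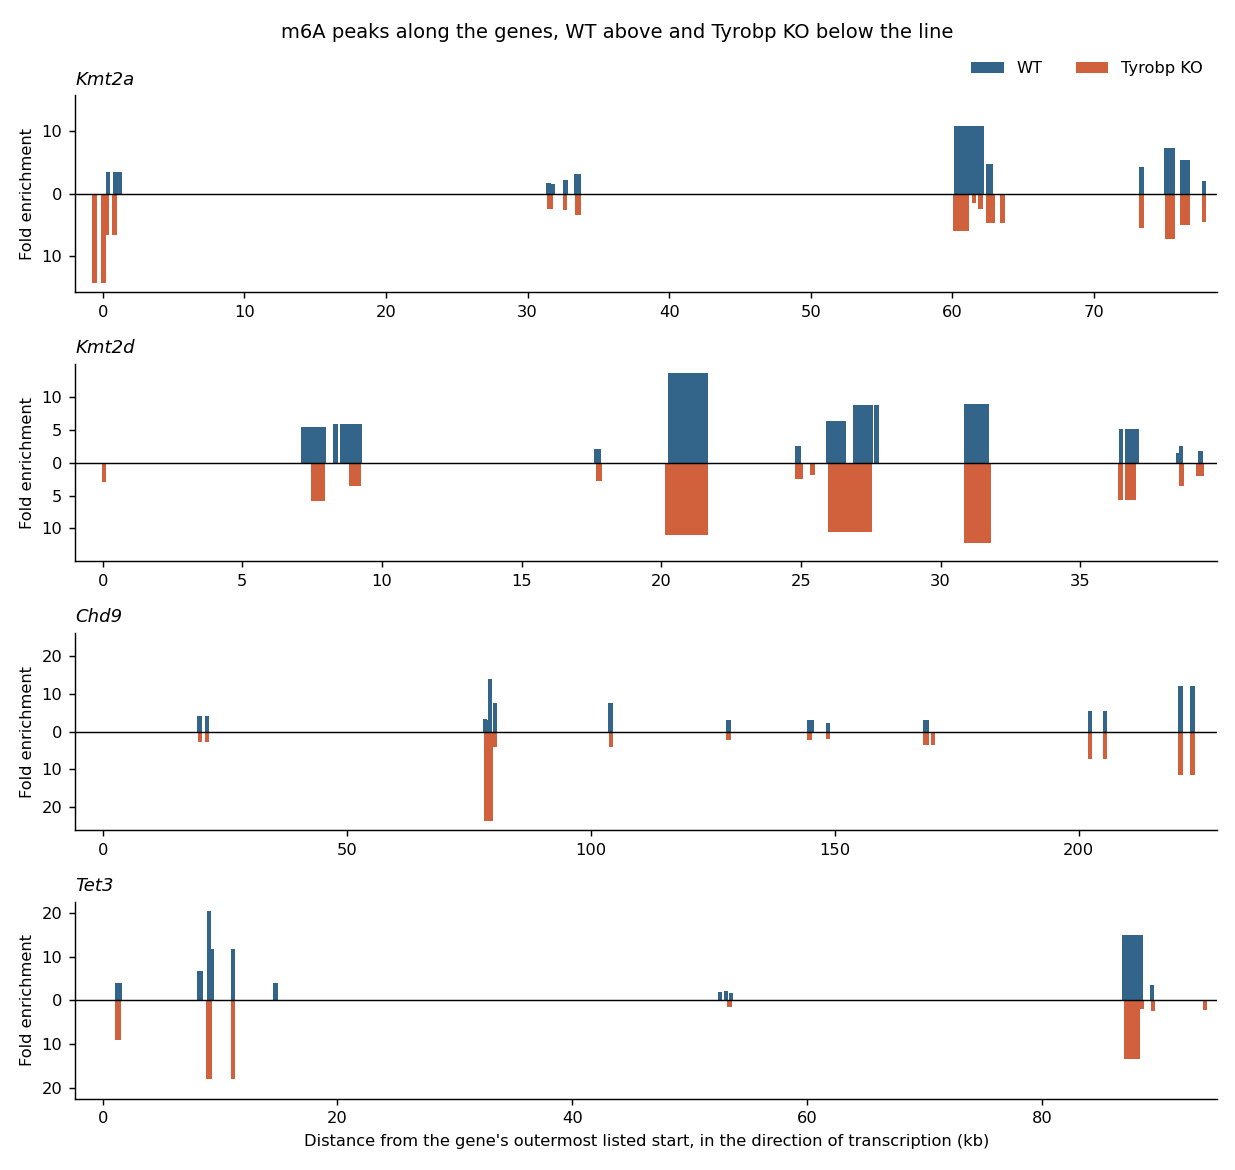
Peaks of the 4 genes with the most peaks in the WT list, as distance in kb from the outermost start listed for the gene (x axis) against fold enrichment (y axis), with WT above and *Tyrobp*-/- below the line. Bars are exonic blocks, widened where needed to stay visible. The *Kmt2d* peaks at the middle of the gene stand in both genotypes, and the broad *Kmt2a* block in WT faces several shorter ones in *Tyrobp*-/- mice.

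In the *Setd* family, *Setd1b* had 6 peaks in WT and 8 in *Tyrobp*-/- mice, and *Setd1a*, the second catalytic subunit of the same kind of complex, had 5 and 8. In each genotype 2 pairs of *Setd1a* peaks lay at almost the same position, so its regions were fewer than its peaks. *Setd5*, a chromatin regulator linked to intellectual disability, had the highest fold enrichment, with 17.4 in WT and 16.7 in *Tyrobp*-/- mice at a peak that ends in its 3′ UTR. The lowest gene was *Setdb2*, with 2.58 as its highest value in WT and 4.29 in *Tyrobp*-/- mice. The *Ezh* genes, catalytic subunits of Polycomb repressive complex 2, had few and weak peaks. *Ezh2* had a single WT peak of 61 bases, with a fold enrichment of 4.39 and a peak-calling FDR of 0.139. *Ezh1* had 2 peaks in the *Tyrobp*-/- list, annotated to its 3′ UTR, with fold enrichments of 1.68 and 1.77.

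Demethylases of the *Kdm* family had 39 peaks in 16 genes in WT and 47 in 17 genes in *Tyrobp*-/- mice. *Kdm2a*, which acts at CpG islands, had the most, 6 and 8. *Kdm4d* had a peak in the last of its 2 exons (chr9:14463442-14464246) with 22 in WT and 35.3 in *Tyrobp*-/- mice, the highest of the family in the latter. *Kdm5b*, an eraser of promoter marks, had the highest in WT, a 3′ UTR peak of 26.4 (chr1:134634475-134635285). The matched *Tyrobp*-/- peak had 8.58, or 0.325 of the WT value, and covered 481 bases instead of 811. *Kdm6a* was the lowest gene with peaks in both lists, with no value above 2.73 in WT and 3.86 in *Tyrobp*-/- mice.

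Acetyltransferases of the *Kat* family had a median fold enrichment of 6.98 in WT and 7.88 in *Tyrobp*-/- mice. *Kat6b*, whose loss causes a developmental syndrome, had 5 peaks in each genotype. Its values were 17.6, 6.57, 1.86, 16 and 14.2 in WT and 20, 9.87, 2.33, 12.6 and 13.4 in *Tyrobp*-/- mice at the matched peaks, in order along the transcript. *Kat6a* had 4 and 5 peaks. *Kat14*, a subunit of the ATAC complex, had the highest value of the family in both genotypes. That was a 5′ UTR peak of 27.3 in WT and a 3′ UTR peak of 23.9 in *Tyrobp*-/- mice, where WT had 23.3. *Kat7* was lowest, with 2.15 in WT and 2.60 in *Tyrobp*-/- mice as its highest values.

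Deacetylases had lower medians than the *Kat* genes, 2.37 in WT and 2.86 in *Tyrobp*-/- mice. Higher values were found at a 5′ UTR peak of the cytoplasmic deacetylase *Hdac6*, with 24.4 in WT and 15.2 in *Tyrobp*-/- mice, and at a 3′ UTR peak of *Hdac4*, a class IIa enzyme, with 12.9 and 16.3. *Hdac8*, a class I enzyme, reached 11 in WT and 14.4 in *Tyrobp*-/- mice. *Hdac9* had 3 peaks in WT and 6 in *Tyrobp*-/- mice, and the 3 without a WT match had fold enrichments of 7.62, 7.62 and 6.67 and peak-calling FDRs above 0.05. Of the 12 members with a peak in 1 list only, 4 were deacetylases, namely *Hdac1*, *Hdac7* and *Hdac11* in WT and *Hdac5* in *Tyrobp*-/- mice. Their single peaks had 61 to 120 exonic bases and fold enrichments of 1.44 to 2.26.

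The DNA methylation genes were few and are given in full. *Dnmt1*, the maintenance methyltransferase, had an internal exon peak with 1.58 in WT and 1.61 in *Tyrobp*-/- mice, and a 5′ UTR peak of 7.81 in the WT list only, with an FDR above 0.01. *Dnmt3a*, the de novo enzyme of neurons, had a 3′ UTR peak with 5.59 in WT and 7.10 in *Tyrobp*-/- mice. At its 5′ end (chr12:3806007-3807059) the WT value was 21.5 over 361 bases, whereas the matched *Tyrobp*-/- peak covered 211 bases with 3.45. That ratio of 0.160 was the lowest of all member pairs. *Dnmt3c* had 1 *Tyrobp*-/- peak, with 9.53 and an FDR of 0.0309.

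All 3 *Tet* genes, the oxidases that start DNA demethylation, had a strong peak annotated to the 3′ UTR. *Tet1* had 19.2 in WT and 6.67 in *Tyrobp*-/- mice, *Tet2* had 17.4 and 13.9, and *Tet3* had 15.1 and 13.4, so the WT value was higher for each. Their internal exon peaks, in exon 3 of 11 for each gene, were weaker, with 1.69 to 3.89 in WT and 1.49 to 3.04 in *Tyrobp*-/- mice. *Tet3* had 9 peaks in WT and 7 in *Tyrobp*-/- mice. Near its start, in a shorter transcript, 2 WT peaks of 11.7 and 20.5 faced 1 *Tyrobp*-/- peak of 18.1. These peaks also lay within another RefSeq gene, *B230319C09Rik*. A 5′ UTR peak farther upstream had 3.98 in WT and 9.05 in *Tyrobp*-/- mice. Over the 9 *Tet* pairs the median log2 ratio was -0.18, with 7 pairs lower in *Tyrobp*-/- mice. Of all 23587 pairs, 10847 were lower. The *Tet* pair at the median, in exon 3 of *Tet3*, shared only 1 base.

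Among the remodelers, *Chd3*, a nucleosome remodeling subunit, had the highest fold enrichment of all members, 62.4 in WT and 54.6 in *Tyrobp*-/- mice. The value was at a spliced 5′ UTR peak (chr11:69363670-69369406), which also lay within another RefSeq gene, *Gm32483*. The other *Chd3* values ranged from 1.49 to 2.52 in WT and from 1.62 to 3.30 in *Tyrobp*-/- mice. *Chd9* had 11 peaks in WT and 8 in *Tyrobp*-/- mice, although the bases covered were more in the latter, 5091 against 4372. There, 3 WT peaks of 3.35, 2.99 and 14 met a single *Tyrobp*-/- peak of 23.8. The lowest *Chd* genes by their strongest peak had 9.87 (*Chd8*, in WT) and 9.53 (*Chd5*, in *Tyrobp*-/- mice). The *Chd5* value came from a peak of 61 bases with a log10 FDR of -1.51, and it is among the most frequent values of that list. Its 3′ UTR peak had 4.25 in *Tyrobp*-/- mice, with a log10 FDR of -198. *Smarc* genes, which encode SWI/SNF subunits and related ATPases, had low medians, 2.19 in WT and 2.77 in *Tyrobp*-/- mice. *Smarca2* stood out in its family with 32.2 in WT and 13.3 in *Tyrobp*-/- mice at a peak annotated to the 5′ UTR of a transcript that starts within the gene, whereas *Smarca4*, the alternative ATPase, had at most 3.29 and 4.76. The lowest was *Smarcd3* in WT, with 1.95, and *Smarcc2* in *Tyrobp*-/- mice, with 1.85 as its highest value. Among *Arid* genes, *Arid1b*, a subunit of the same complexes, had a 3′ UTR peak with 32.8 in WT and 32.7 in *Tyrobp*-/- mice. *Arid3b* in WT, with at most 4.39, and *Arid3a* in *Tyrobp*-/- mice, with at most 2.95, were the lowest. *Arid4b*, a corepressor subunit, had 7 peaks in WT and 6 in *Tyrobp*-/- mice, and a 5′ UTR peak of 16.6 in WT had no match.

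Over all members the median fold enrichment was 4.39 in WT and 4.30 in *Tyrobp*-/- mice, below the 5.54 and 5.72 of all peaks. A larger share of the members had a peak-calling FDR below 1e-5, at 79.5% (WT) and 75.6% (*Tyrobp*-/-), where all peaks had 64.4 and 63.3%.

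The position of the peaks differed from that of the whole lists mainly in internal exons. Peaks annotated to an internal exon made up 30.4% of the members in WT (83 of 273, exact 95% binomial interval 25.0 to 36.2%) and 31.9% in *Tyrobp*-/- mice (89 of 279, 26.5 to 37.7%). Among all other peaks the shares were 11.2 and 10.5%. Internal exons held 40.0% of peaks in member genes with 5 or more peaks in WT and 21.7% in those with fewer, so that genes with many peaks contributed more. Among families with at least 10 peaks in each genotype the share was highest in *Setd* (51.6% in WT, 52.8% in *Tyrobp*-/- mice) and *Kmt* (50.0 and 48.0%), and it was 15.4 and 14.9% in *Kdm*. The *Setd* shares count separately the *Setd1a* peaks at almost the same position, which all lay in internal exons. The 3′ UTR held 41.8% of member peaks in WT (35.8 to 47.9%) and 43.4% in *Tyrobp*-/- mice (37.5 to 49.4%), compared with 47.2 and 49.3% of all peaks. It held most of the *Hdac* (71.4 and 66.7%) and *Kdm* peaks (61.5 and 61.7%). The 5′ UTR held 17.9% of member peaks in WT and 15.1% in *Tyrobp*-/- mice, and these had the highest medians among the 5′ UTR, 3′ UTR and internal exon classes, 6.84 and 6.67, whereas internal exons had 3.11 and 2.94. Both 5′ UTR medians equal the most frequent value of their list. Last exons, with 14 peaks in WT and 11 in *Tyrobp*-/- mice, had medians of 6.695 and 7.62. The intervals cover counting error only, and peaks of one transcript are not independent.

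**Figure D3:**
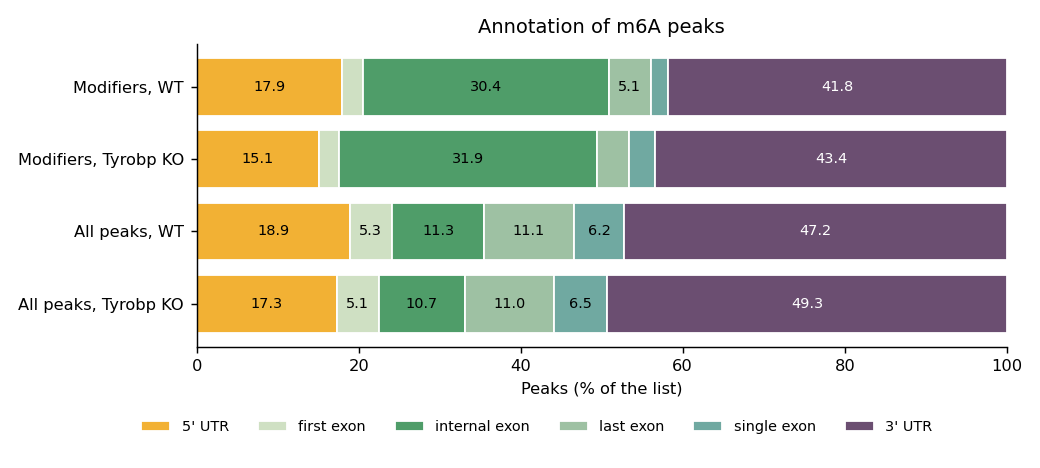
Annotation of the member peaks and of all peaks in each genotype, as percent of the list (x axis), with 1 bar per set and 1 color per class, and shares above 5% printed. Internal exons take 30.4 and 31.9% of the member bars and 11.3 and 10.7% of the bars for all peaks.

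To compare genotypes, peaks of the same gene were matched when their exonic blocks shared at least 1 base. A match was found for 83.5% of the WT members (228 of 273) and 84.2% of the *Tyrobp*-/- members (235 of 279), compared with 77.5 and 75.4% of all peaks. The 45 unmatched WT members had a median fold enrichment of 2.72 and the 44 unmatched *Tyrobp*-/- members 2.86, below the 4.70 and 4.50 of matched ones, and 7 and 14 of them had an FDR of 0.05 or more. Of members with an FDR below 1e-5, 20 of 217 in WT (9.22%) and 10 of 211 in *Tyrobp*-/- mice (4.74%) had no match, where all such peaks had 8.16 and 9.18%. *Kmt2a* gave the highest value among those 10, a 5′ UTR peak of 14.3. *Arid4b* gave the highest among the 20, its 5′ UTR peak of 16.6.

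On 12 of the 90 genes (13.3%) a peak was listed in 1 genotype only, compared with 20.1% of all genes with a peak (9.01% only in WT and 11.1% only in *Tyrobp*-/- mice). In WT they were *Arid3b*, *Ezh2*, *Hdac1*, *Hdac7*, *Hdac11*, *Kdm8* and *Smarcd2*, with 9 peaks of 61 to 210 bases and fold enrichments of 1.44 to 4.39. In *Tyrobp*-/- mice they were *Dnmt3c*, *Ezh1*, *Hdac5*, *Kdm1a* and *Kdm4c*, with 7 peaks of 61 to 181 bases and values of 1.68 to 9.53. *Kdm1a*, a flavin-dependent demethylase, had a peak of 61 bases with 6.67 and an FDR of 0.290. *Kdm4c*, from another demethylase family, had values of 4.29 and 3.81 at FDRs of 0.147 and 0.118. *Arid3b* had 4.39 and 1.69 at FDRs of 0.139 and 0.0661, *Kdm8* had 1.90 at 0.0490, and *Smarcd2* had 1.98 and 3.64 at FDRs below 0.05. Of these 16 peaks, 7 had an FDR below 1e-5. Absence from a list says only that no peak called by the authors was annotated to the gene, not that the transcript carried no m6A.

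Mutual best matches gave 214 pairs of member peaks. The median log2 ratio of fold enrichment, *Tyrobp*-/- over WT, was 0.07 (interquartile range -0.25 to 0.31), with 117 pairs higher and 97 lower in *Tyrobp*-/- mice, and it was 0.05 over all 23587 pairs (-0.28 to 0.39). A ratio of at least 1.5 was found at 16 member pairs (7.48%, exact 95% interval 4.33 to 11.9%), whereas 16% of all pairs reached it. A ratio as far in the other direction was found at 22 member pairs (10.3%, 6.56 to 15.2%), against 13.2% of all pairs. At a fold of 2 these counts were 4 and 10, and the shares of all pairs were 6.91 and 6.05%. Among the 180 member pairs with both peaks below an FDR of 1e-5 the counts were 11 higher and 14 lower, with 12.8 and 9.25% among all such pairs. The shares of members were thus near or below those of all pairs, and members as a group were not marked by large ratios. Of the 22 lower pairs, 11 were in a 5′ UTR, as were 6 of the 16 higher ones, and 35 of the 214 pairs had that annotation in WT. Over all genes, 768 of 4149 5′ UTR pairs were lower and 679 higher by that fold.

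**Figure D4:**
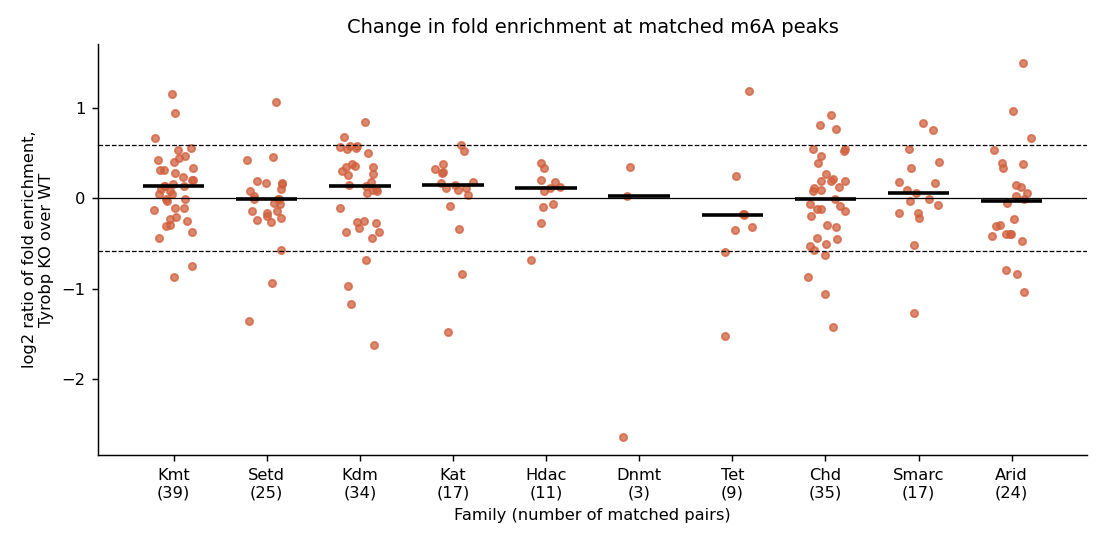
The log2 ratio of fold enrichment, *Tyrobp*-/- over WT (y axis), at the 214 matched member pairs by family (x axis, number of pairs in parentheses). Points are pairs, black bars family medians and dashed lines a 1.5-fold difference, and all medians lie between the dashed lines.

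By family the median log2 ratio was 0.13 for *Kmt* (39 pairs), -0.01 for *Setd* (25), 0.14 for *Kdm* (34), 0.14 for *Kat* (17) and 0.11 for *Hdac* (11). It was 0.03 for *Dnmt* (3), -0.18 for *Tet* (9), -0.01 for *Chd* (35), 0.05 for *Smarc* (17) and -0.03 for *Arid* (24). *Ezh* genes had no pair. No family had more than 4 pairs past 1.5-fold in either direction.

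The 6 highest ratios among the 180 pairs with a low FDR in both genotypes belonged to 5 genes. The *Tet3* 5′ UTR peak had 3.98 in WT and 9.05 in *Tyrobp*-/- mice (ratio 2.27). *Kmt2a* had 2 of the 6, a 3′ UTR peak with 2.02 and 4.50 (2.23) and an exonic peak close to its start with 3.48 and 6.67 (1.92). *Setd7*, a methyltransferase of histones and other proteins, had a 5′ UTR peak with 5.53 and 11.6 (2.10), which holds the bases printed above. *Arid4b* had a 3′ UTR peak with 3.91 and 7.62 (1.95). *Smarce1*, a SWI/SNF subunit, had a 3′ UTR peak with 3.77 and 6.71 (1.78).

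The 6 lowest ratios started from higher WT values, and 4 of them were in a 5′ UTR. The *Tet1* 3′ UTR peak (chr10:62812747-62813646) had 19.2 in WT and 6.67 in *Tyrobp*-/- mice (ratio 0.347). The 5′ UTR peak of *Kat14* had 27.3 and 9.78 (0.358), that of *Chd4*, the main ATPase of the NuRD complex, had 33.2 and 12.4 (0.373), and that of *Smarca2* had 32.2 and 13.3 (0.413). *Kdm2b*, a subunit of a Polycomb complex, had a 5′ UTR peak with 17.1 and 7.62 (0.446). *Chd7*, the gene of CHARGE syndrome, had an internal exon peak with 6.94 and 3.32 (0.478). The *Smarca2* pair shared 151 bases of 271 in WT and 631 in *Tyrobp*-/- mice, whereas the *Chd4* pair shared 360 of 390 in each. The peaks of *Setd7*, *Kat14* and *Kdm2b* and the *Kmt2a* peak at its start also lay within another RefSeq gene (*5031434O11Rik*, *Pet117*, *A930024E05Rik* and *Gm39326*). This was the case for 21 WT and 23 *Tyrobp*-/- member peaks, and reads of overlapping genes cannot be told apart here. The *Tyrobp*-/- values of the *Tet1* peak and of the *Kmt2a* peak at its start (6.67) and of the *Arid4b* and *Kdm2b* peaks (7.62) are each among the 5 most frequent values of their list, as is the 8.58 of *Kdm5b*.

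**Figure D5:**
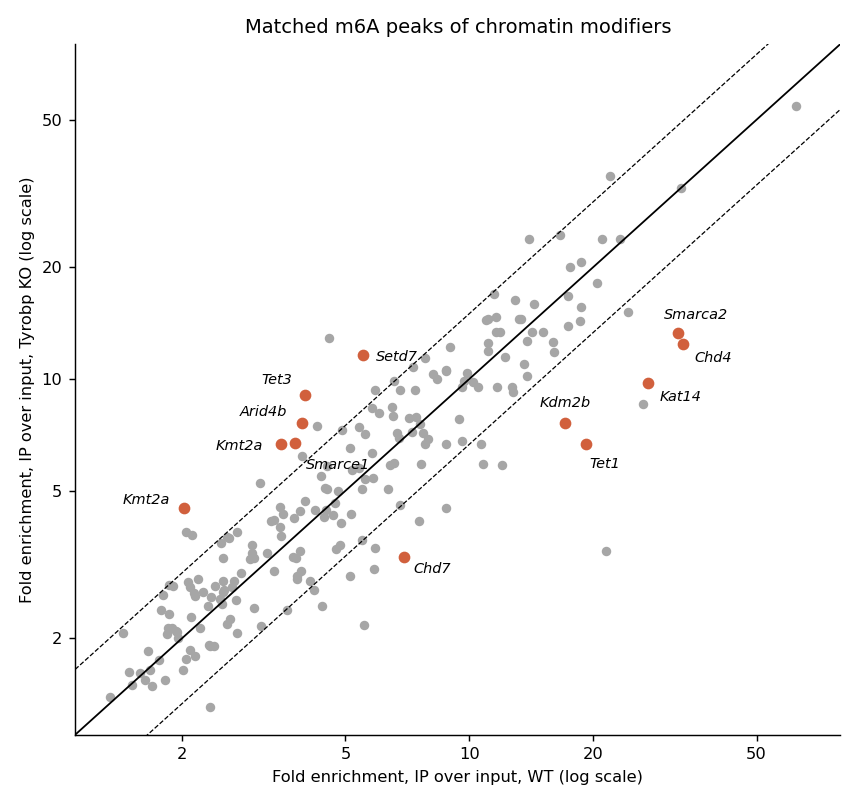
Fold enrichment in WT (x axis, log scale) against *Tyrobp*-/- mice (y axis, log scale) at the 214 matched member pairs. The solid line is equality, the dashed lines 1.5-fold, and the named orange points are the 6 highest and 6 lowest ratios among pairs with an FDR below 1e-5 in both genotypes. The lowest ratios sit at WT values of 6.94 to 33.2 and the highest at 2.02 to 5.53.

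The authors' table that compares the genotypes held 35 member rows in 26 of the 90 genes (28.9%), against 26.1% of all genes with a peak. The most rows belonged to *Kmt2d*, with 3 in exon 11 of 55, followed by *Arid3a*, *Chd4*, *Dnmt3a*, *Ezh1*, *Kmt2a*, *Smarcc1* and *Tet3*, with 2 each. Of the 35 rows, 23 overlapped a peak of the same gene in both genotype lists (65.7%, near the 61.8% of all rows), 5 only in WT and 7 only in *Tyrobp*-/- mice. The 3′ UTR held 19 rows (54.3%, against 53.3% of all 5640 rows), internal exons 8 (22.9 against 9.02%) and the 5′ UTR 5 (14.3 against 17.9%). *Arid3a*, a DNA-binding factor, had rows in both UTRs. In the genotype lists its 5′ UTR peak had 5.13 in WT, and the matched *Tyrobp*-/- peak, annotated to an internal exon, had 2.95, and exonic bases under its peaks were 2096 and 962. *Smarcc1*, a scaffold of SWI/SNF complexes, had 1 WT peak of 2.72 and 2 *Tyrobp*-/- peaks of 1.68 and 2.69, and none of the latter overlapped the former.

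Other genes of chromatin modification outside the 11 families had similar values. Of 62 such genes, 52 had a peak in WT and 53 in *Tyrobp*-/- mice, with median fold enrichments of 4.32 in each list. At their 113 matched pairs the median log2 ratio was 0.03, with 9 pairs at least 1.5-fold higher and 12 lower in *Tyrobp*-/- mice. Internal exons held 18.1% of their WT peaks (exact 95% interval 12.3 to 25.3%) and 18.3% of their *Tyrobp*-/- peaks. All 12 histone methyltransferases with other symbols had peaks in both lists, 53 in WT and 48 in *Tyrobp*-/- mice. The Polycomb genes *Eed* and *Suz12*, partners of the *Ezh* enzymes, had none in either list, while 13 and 11 of the 15 Polycomb genes had one. Of the 3 COMPASS subunits without a WT peak, *Wdr5*, *Ash2l* and *Dpy30*, only *Wdr5* also lacked one in *Tyrobp*-/- mice. Both acetyltransferases with other symbols, *Ep300* and *Crebbp*, had peaks, with medians of 10.6 in WT and 11.6 in *Tyrobp*-/- mice. Sirtuins had a peak on 5 and 6 of 6 genes, methyl-CpG binding and related genes on 5 of 7 in each list, bromodomain readers on 7 and 6 of 7, and corepressors on 6 and 7 of 8.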

How the data were processed

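MeRIP-seq data of 12 libraries were used. Per the study's methods, the authors cleaned reads with fastp, mapped them with HISAT2 (Ensembl v96, GRCm38), called m6A peaks with exomePeak and annotated them with ChIPseeker, whose versions are not given in the sources used here. The authors deposited read counts of each library before and after cleaning, with the percent of bases at Q20 and Q30, valid, or G or C. In the peak lists the authors deposited 1 fold enrichment per peak, the ratio of IP over input scaled by exomePeak, and the log10 of its FDR, read here as a score, since some values are listed as minus infinity. The deposited table that compares the genotypes also holds a log2 fold change, a p-value and an FDR of the authors' own comparison, which were not used. Only its rows' positions and annotation were.

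Samples were grouped by genotype and library type from the labels. Members and gene lists were chosen with earlier results of these data known. Peaks of the same gene were matched by at least 1 shared exonic base, and paired when each was the other's best match. Ratios of fold enrichment were called at 1.5-fold. Values of both lists were compared as deposited. Intervals are exact (Clopper-Pearson, 95%). Of the 90 member symbols, 89 were found in RefSeq (GRCm38.p6), and all 89 overlapped the listed peaks by position. Genes named were the *Dnmt*, *Tet* and *Ezh* members, those with the most peaks or the highest fold enrichment per family, the lowest and highest gene of a family, the 6 highest and 6 lowest ratios with both FDRs below 1e-5, genes of 1 list only, and the 5 genes with most rows in the comparison table, which ties widened to 8. *Kmt2c*, *Hdac8* and *Mag* were named after their values were seen. Matching was run on simulated peaks whose shared members had the same coordinates in both lists. How it handles shifted or split peaks was not tested. Alternatives were a stricter FDR, a fold enrichment of at least 4, a fold of 2, other overlaps, rescaled ratios, weights by exonic length and the strongest peak of each gene alone. Tables were handled with pandas 2.3.3 in Python 3.11.15. Intervals came from scipy 1.17.1 with numpy 2.4.6, and plots from matplotlib 3.10.9.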

Additional observations from a re-analysis of the deposited data

How the results depend on the processing

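Of 31 alternatives to 12 reported values, 17 left the value within its counting interval or within 1.5 times its count, and the median log2 ratio stayed positive under both of its alternatives. Taking only the strongest peak of each gene gave medians of 9.87 in WT and 9.84 in *Tyrobp*-/- mice, a rise that the choice itself makes, and 3′ UTR shares of 49.4 and 53.0%. Weighting by exonic length gave 3′ UTR shares of 50.2 and 50.8%. Over all peaks these settings gave 51.2 and 53.8%, and 53.3 and 56.0%. Members were lower in both lists, but only slightly with the strongest peak alone. At an FDR below 1e-5 the 3′ UTR held 44.2% of member peaks in WT and 46.0% in *Tyrobp*-/- mice. Of all peaks below that FDR it held 57.7 and 60.3%. A reciprocal overlap of 50% lowered the matched shares to 68.5 and 67.0%, and an FDR below 1e-5 in both lists raised them to 88.0 and 91.0%. A fold of 2 left 4 higher and 10 lower pairs, and an FDR below 1e-5 in both lists left 14 lower pairs. Rows of the comparison table over a peak of both genotype lists numbered 23. A fold of 2, a larger overlap and a peak in both lists are requirements that can only remove pairs, matches or rows. The same holds for an FDR below 1e-5 in both lists where pairs are counted. For the other settings the cause was not tested. No paired analysis was possible because replicates were pooled in each peak list, and for the same reason no replicate could be left out. The reads behind a peak are unknown, so no error can be given for a single ratio.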

Other observations

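The same fold enrichments recur in many peaks of a list. In WT the 5 most frequent values were 6.84, 7.81, 8.79, 9.77 and 10.7, which together were listed for 12.5% of all peaks and for 13 of the 273 member peaks. In *Tyrobp*-/- mice they were 6.67, 7.62, 8.58, 9.53 and 10.5, listed for 13% of all peaks and for 24 of the 279 member peaks. The peaks at 6.84 in WT and at 6.67 in *Tyrobp*-/- mice had a median log10 FDR of -0.56 and -0.54. Member peaks at 6.67 in *Tyrobp*-/- mice belonged to *Arid1a*, *Arid1b*, *Arid5a*, *Hdac9*, *Kdm1a*, *Kdm2a*, *Kmt2a* and *Tet1*, and those at 7.62 to *Arid4b*, *Hdac9*, *Kdm2a*, *Kdm2b* and *Kmt2c*. At 7.81 in WT they belonged to *Arid1b*, *Arid3a*, *Dnmt1* and *Kdm2a*. Of the member peaks at the 5 most frequent values, 4 in WT and 11 in *Tyrobp*-/- mice had a peak-calling FDR of 0.05 or more.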
